A study of Bos taurus with 14 samples.

Results

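The mitosis and cyclin genes are 50 genes named for cell division: cyclins and their kinase partners, mitotic kinases, the spindle checkpoint, centromere and kinetochore proteins, the chromosomal passenger complex, spindle proteins and motors, cytokinesis genes, condensin subunits and genes of mitotic entry. Members were taken by symbol: every probe set of the array whose single annotated gene symbol was in the list. Of the 50 genes, 35 had a probe set, with 52 probe sets in all, among 24016 probe sets and 9155 named genes tested. The other 15 had no probe set under their symbol and have no value here: CENPE, SPC25, KIF11, PTTG1, TTK, RACGAP1, PBK, CDKN3, NEK2, NUF2, FOXM1, DLGAP5, SMC2, TOP2A and PRC1. No filter on low values was used, so each of the 35 entered every comparison, and a gene with several probe sets is described by the one of highest mean over all arrays.

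The samples were mammary biopsies of Holstein dairy cows in late pregnancy, after milking had ended about 60 days before the predicted calving. Cows were allotted at random to short days (SD, with light for 8 h and dark for 16 h) or long days (LD, with light for 16 h and dark for 8 h) throughout that dry period. The groups were SD at day -9 relative to calving (4 arrays), LD at day -9 (4 arrays), SD at day -24 (3 arrays) and LD at day -24 (3 arrays), and all shared breed, tissue and the end of milking. The ages of the cows, and whether the same cows were biopsied at both days, are not given in the labels, so p-values measure the spread between these arrays.

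Before calving the mammary gland renews and expands its secretory epithelium, and division of epithelial cells in this period is known to bear on the number of milk-producing cells. A cell that enters mitosis accumulates cyclin B, which activates the kinase CDK1, and Aurora and Polo-like kinases then build the spindle. The spindle checkpoint holds back the anaphase-promoting complex until kinetochores are attached, after which securin and cyclins are destroyed and the cell divides. The genes for these proteins are transcribed together late in the cell cycle, and their transcripts are low in resting cells. The roles given below are described mainly from human and other model cells.

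Signal is the authors' log2 value by robust multi-array average, given for each probe set on each array, and precision is limited by how many arrays there are. Array medians lay between 6.43 and 6.61. Genes that mark mammary epithelium had signal in all 14 arrays: the beta-casein gene CSN2 lay between 12.57 and 13.13, the epithelial adhesion gene EPCAM between 10.45 and 11.14, and the luminal keratin gene KRT8 between 7.81 and 9.70. SD day -9 replicate 1 stood apart on the third principal component, at 53.9, and LD day -24 replicate 1 on the first, at -62.6. LD day -9 replicate 4 and SD day -24 replicate 3 shared 280 probe sets at least 0.7 below every other array, and 0 of the 52 probe sets of the mitosis and cyclin genes were among them. A biopsy mixes cell types, so fewer dividing cells and less transcript per dividing cell cannot be told apart in any result below.

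Mitosis and cyclin genes were high or low in the same arrays. The mean over the 35 genes, each centred on its own mean over the 14 arrays, was -1.55, 0.02, 0.20 and -0.29 in SD at day -9, against 0.08, -0.14, 0.34 and 0.28 in LD at day -9. At day -24 this mean level was 0.83, -0.30 and 0.72 in SD, against -0.19, -0.10 and 0.10 in LD. The LD arrays thus lay within a narrow band at both days, while the SD arrays held both the highest and the lowest levels of the series. SD day -9 replicate 1 was the lowest of the 14 arrays for 32 of 35 genes, and the highest array was SD day -24 replicate 1 for 23 genes and SD day -24 replicate 3 for 10.

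**Figure D1:**
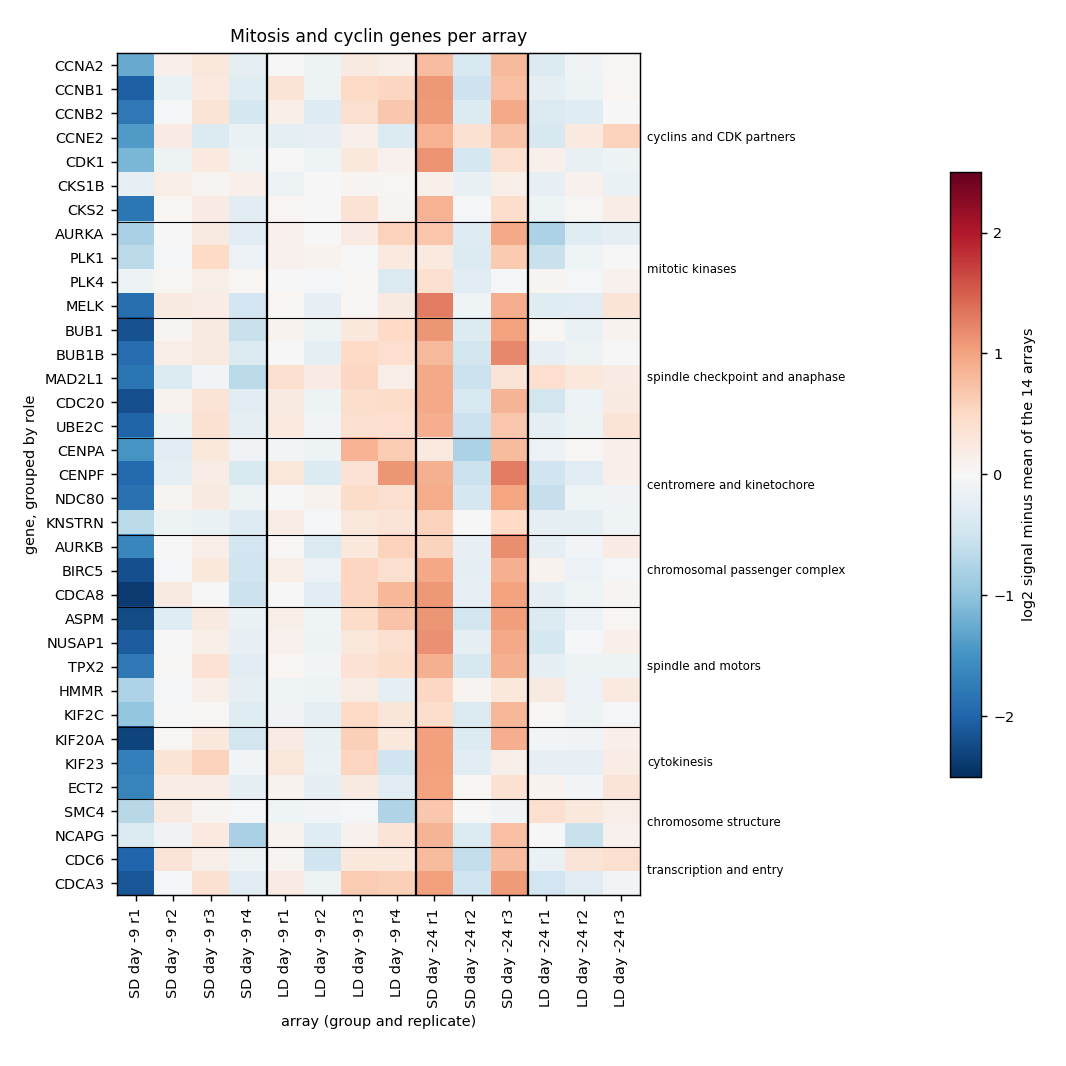
Log2 signal of the 35 mitosis and cyclin genes (rows, grouped by role) in each of the 14 arrays (columns, by group and replicate), as the difference from the gene's mean over the 14 arrays. SD day -9 replicate 1 is the lowest array for 32 genes, and SD day -24 replicates 1 and 3 are the highest for 33 between them.

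Within SD at day -9, replicate 1 was below the mean of the other 3 arrays for 35 of 35 genes, with a median log2 difference of -1.80. The gap ran from -2.29 for CDCA8, a subunit of the chromosomal passenger complex, to -0.15 for the condensin gene NCAPG. At least 2-fold lower signal in this array was found for 26 of the 35 genes (74.3%), against 1.93% of all probe sets, and no gene was at least 2-fold higher, against 2.36%. Within SD at day -24, replicate 2 was below the mean of replicates 1 and 3 for 35 of 35 genes, with a median difference of -1.19, and 24 of 35 (68.6%) were at least 2-fold lower, against 1.22% of all probe sets. These gaps were read off the arrays after their values were seen and carry no test.

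Other gene lists were set beside both gaps, first that of SD day -9 replicate 1. Replication and S phase genes, which copy DNA before mitosis, were lower in that array for 31 of 31 measured genes, with a median of -0.87, and further mitosis genes outside the 50 for 36 of 39, with a median of -0.81. Markers of luminal epithelium were higher in that array for 10 of 13 genes (median 0.35), of myoepithelium for 7 of 8 (0.56), of adipocytes for 4 of 7 (0.37), of endothelium for 6 of 8 (0.34), of macrophages for 3 of 5 (0.29) and of neutrophils for 4 of 4 (1.71). Fibroblast markers were lower for 8 of 9 genes (-0.35) and lymphocyte markers for 8 of 12 (-0.43). The lymphocyte list was split. Its 8 lower genes were the T cell genes, such as CD3D (-1.10) and CD3G (-0.85), and PTPRC. The B and plasma cell genes MS4A1 (1.41), MZB1 (0.69), JCHAIN (0.40) and CD79A (0.19) were higher. The mean difference between 3-prime and 5-prime control probe sets, a sign of RNA quality, was 0.93 in that array and 0.84 to 0.99 in the other SD arrays of day -9. In SD day -24 replicate 2, against replicates 1 and 3, replication and S phase genes were lower for 29 of 31 (median -0.53) and further mitosis genes for 35 of 39 (-0.70). Fibroblast markers were higher in that array for 8 of 9 genes (0.26) and lymphocyte markers for 9 of 12 (0.24), while endothelial markers were lower for 7 of 8 (-0.48) and neutrophil markers for 3 of 4 (-0.64). Luminal markers were split, with 7 of 13 higher (median 0.21). Their mean level of -0.11 lay between those of replicates 1 (-0.09) and 3 (-0.13). Myoepithelial and adipocyte levels also lay between those of replicates 1 and 3. The macrophage level was -0.22, against -0.28 and -0.22. The part of cell makeup in the low mitotic signal of both biopsies was not tested.

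**Figure D2:**
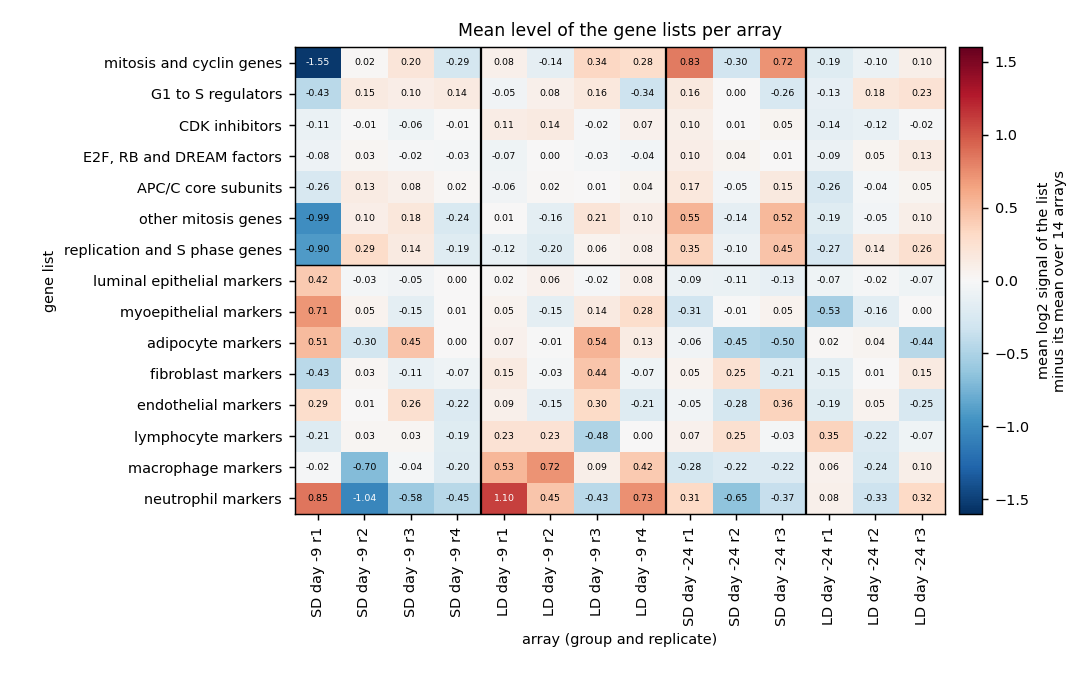
Mean log2 signal of the mitosis and cyclin genes and of 14 other gene lists (rows) in each of the 14 arrays (columns), each gene first centred on its mean over the arrays. The mitosis and cyclin genes are at -1.55 in SD day -9 replicate 1, where the neutrophil markers are at 0.85 and the myoepithelial markers at 0.71.

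The cyclins and their kinase partners come first. CDK1, the kinase that drives cells into mitosis, was at 7.03, 8.04, 8.42 and 8.05 in SD at day -9, against 8.18, 8.07, 8.44 and 8.28 in LD at day -9. At day -24 it was at 9.29, 7.73 and 8.57 in SD, against 8.29, 7.98 and 8.05 in LD. SD replicate 1 was the lowest array at day -9 and SD replicate 1 the highest at day -24, and SD and LD overlapped at both days. CCNB1, the B-type cyclin that activates CDK1, was at 5.11, 6.98, 7.39 and 6.84 in SD at day -9, against 7.49, 7.02, 7.66 and 7.68 in LD. Its signal at day -24 was 8.24, 6.63 and 7.91 in SD, against 6.91, 7.03 and 7.21 in LD. Of all arrays, SD day -9 replicate 1 was lowest for this gene by a wide margin, and SD replicate 2 lay below every LD array at day -24 while the other SD arrays lay above them.

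CCNA2, the cyclin of S phase and G2, was at 5.45, 6.83, 7.00 and 6.48 in SD at day -9, against 6.70, 6.59, 6.93 and 6.87 in LD. At day -24 the gene had 7.49, 6.34 and 7.52 in SD, against 6.38, 6.63 and 6.77 in LD. Again replicates 1 and 3 of SD at day -24 were the highest arrays, and the SD range enclosed the LD range at both days. CCNE2, an E-type cyclin of the step from G1 into S phase, was at 4.44, 6.05, 5.51 and 5.67 in SD at day -9, against 5.60, 5.65, 5.97 and 5.51 in LD. It had 6.72, 6.23 and 6.57 in SD at day -24, against 5.45, 6.09 and 6.42 in LD. Every SD array at day -9 lay below every SD array at day -24 for this cyclin, and the LD groups of both days overlapped. CKS1B, a small subunit that binds cyclin-dependent kinases, had the narrowest range of the 35 genes, 9.76 to 10.13 over all arrays, a spread of 0.37. CKS2, its close relative, ranged over 2.69, and CCNB2, another B-type cyclin, over 2.85.

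Among the mitotic kinases, AURKA, which matures centrosomes and builds the spindle, was at 6.11, 6.91, 7.14 and 6.63 in SD at day -9, against 7.04, 6.92, 7.12 and 7.49 in LD. At day -24 AURKA was at 7.61, 6.60 and 7.88 in SD, against 6.13, 6.63 and 6.70 in LD. SD replicate 2 at day -24 overlapped the LD arrays, and the other SD arrays of that day were above all 3 of them. PLK1, the Polo-like kinase of mitotic entry and spindle assembly, was at 5.90, 6.51, 7.04 and 6.40 in SD at day -9, against 6.65, 6.64, 6.53 and 6.79 in LD. It had 6.80, 6.21 and 7.20 in SD at day -24, against 5.999, 6.44 and 6.57 in LD. SD and LD overlapped at both days, and the lowest array at day -24 was LD replicate 1. MELK, a kinase of dividing cells, was at 4.71, 6.82, 6.78 and 6.12 in SD at day -9 and 7.87, 6.50 and 7.50 in SD at day -24, and of the day -24 arrays only replicate 2 lay within the range of day -9. PLK4, which starts centriole duplication, stayed between 5.16 and 5.93 in all arrays.

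The spindle checkpoint and its target followed. MAD2L1, the Mad2 protein that restrains anaphase, was at 5.52, 6.99, 7.27 and 6.66 in SD at day -9, against 7.73, 7.55, 7.85 and 7.51 in LD. All 4 SD arrays lay below all 4 LD arrays. At day -24 its signal was 8.28, 6.80 and 7.65 in SD, against 7.75, 7.60 and 7.53 in LD, and the SD arrays lay on both sides of the LD arrays. BUB1B, the checkpoint kinase-like protein BubR1, was at 6.54, 8.61, 8.67 and 8.08 in SD at day -9, against 8.43, 8.20, 8.95 and 8.85 in LD. It was at 9.26, 7.99 and 9.64 in SD at day -24, against 8.24, 8.31 and 8.44 in LD. The 3 LD arrays of day -24 lay close together, between the low SD replicate 2 and the other SD arrays. CDC20, the activator of the anaphase-promoting complex that the checkpoint inhibits, was at 5.21, 7.49, 7.75 and 7.13 in SD at day -9, against 7.62, 7.28, 7.85 and 7.87 in LD. Its signal at day -24 was 8.35, 7.03 and 8.26 in SD, against 6.96, 7.27 and 7.63 in LD. CDC20 was thus lowest in SD day -9 replicate 1, and SD and LD overlapped at both days.

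At the kinetochore, KNSTRN, which binds spindle microtubules there, was at 7.14, 7.69, 7.65 and 7.49 in SD at day -9, against 8.00, 7.78, 8.10 and 8.13 in LD. At day -24 it was at 8.39, 7.79 and 8.31 in SD, against 7.60, 7.58 and 7.71 in LD. The order was turned round between the days: SD lay below LD at day -9 and above LD at day -24, with no overlap at either day. CENPF, a large kinetochore protein of G2 and mitosis, was at 6.55, 8.24, 8.68 and 8.11 in SD at day -9, against 8.79, 8.16, 8.85 and 9.60 in LD. It had 9.38, 7.96 and 9.77 in SD at day -24, against 8.01, 8.20 and 8.62 in LD. SD and LD overlapped at both days, at day -9 through replicates 2 and 3 of SD. CENPA, the histone variant that marks centromeres, was at 3.46, 4.66, 5.19 and 4.84 in SD at day -9, against 4.86, 4.81, 5.80 and 5.57 in LD. SD replicate 1 was again lowest, and the highest array of the series for CENPA was LD day -9 replicate 3.

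BIRC5, the survivin subunit of the chromosomal passenger complex, was at 6.73, 8.90, 9.20 and 8.44 in SD at day -9, against 9.09, 8.79, 9.47 and 9.33 in LD. At day -24 BIRC5 had 9.91, 8.70 and 9.83 in SD, against 9.02, 8.80 and 8.88 in LD. Replicate 1 of SD at day -9 again stood alone at the bottom. TPX2, which activates AURKA on spindle microtubules, was at 6.63, 8.46, 8.78 and 8.14 in SD at day -9, against 8.48, 8.35, 8.79 and 8.88 in LD. Its day -24 signal was 9.31, 8.02 and 9.32 in SD, against 8.17, 8.29 and 8.30 in LD. The LD arrays of day -9 all lay above those of day -24, and SD overlapped LD at both days. HMMR, a spindle-associated hyaluronan receptor, ranged over 1.30 in all, less than its neighbours ASPM (3.34) and NUSAP1 (3.21), both spindle proteins.

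Of the condensin subunits, which compact chromosomes, NCAPG was at 7.55, 7.82, 8.16 and 7.11 in SD at day -9, against 7.99, 7.61, 8.03 and 8.25 in LD. NCAPG was lowest in SD replicate 4, not in SD replicate 1, unlike most of the other genes. SMC4 was at 6.29, 7.21, 7.05 and 6.95 in SD at day -9, against 6.87, 6.91, 6.93 and 6.22 in LD, and its lowest array was LD replicate 4. At day -24 SMC4 was at 7.66, 6.98 and 6.89 in SD, against 7.37, 7.24 and 7.15 in LD, which overlapped. The cytokinesis genes KIF20A, KIF23 and ECT2 and the entry genes CDC6, a licensing factor of replication, and CDCA3 each spanned between 2.66 and 3.34 over the 14 arrays, with SD day -9 replicate 1 lowest.

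**Figure D3:**
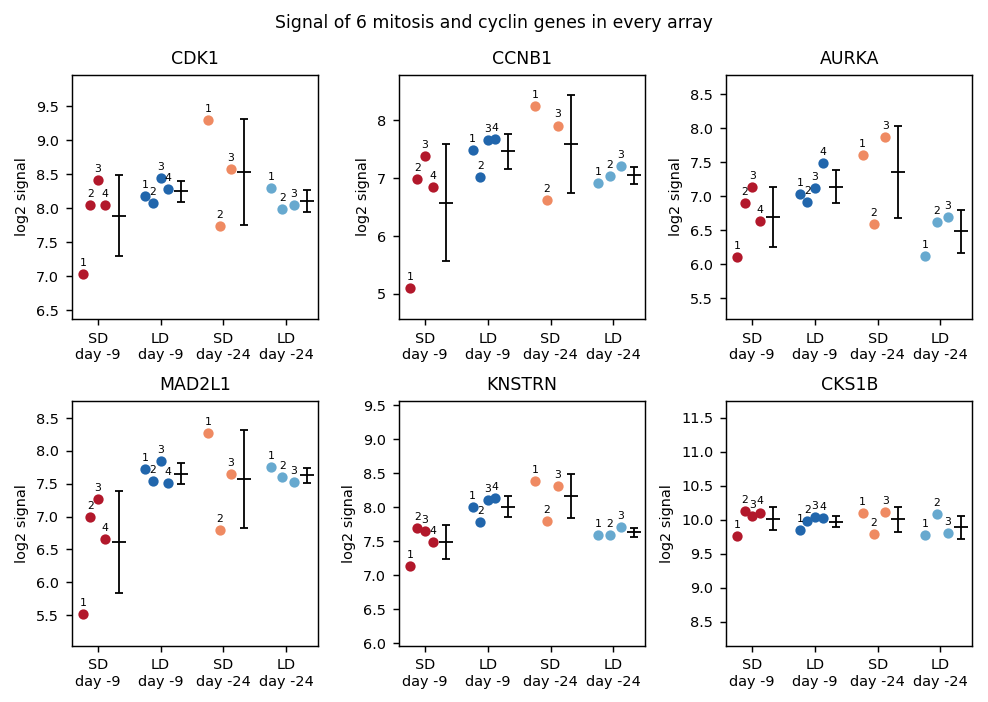
Log2 signal of CDK1, CCNB1, AURKA, MAD2L1, KNSTRN and CKS1B in every array, with points numbered by replicate and bars giving the group mean ± standard deviation (n = 4 per group at day -9, n = 3 at day -24); each panel has its own vertical axis, which does not start at 0. For KNSTRN, SD and LD arrays do not overlap at either day, and CKS1B stays between 9.76 and 10.13.

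Shortly before calving, the question is how photoperiod bears on the gland, addressed by SD against LD at day -9. The mitosis and cyclin genes were mostly lower in SD: 32 of 35 were below 0, with a median log2 difference of -0.61, against a median of 0.00 over all probe sets. The 3 genes above 0 were CKS1B at 0.04, PLK4 at 0.13 and SMC4 at 0.14. No gene of the list passed limma's adjusted threshold of 0.05, nor did any probe set of the array. At an unadjusted limma p under 0.05, 2 of the 35 genes were lower and 0 higher, where 1.33% of all probe sets were lower and 1.44% higher. These were KNSTRN, at -0.51 (standard error 0.15) with limma's adjusted p = 0.984, and MAD2L1. MAD2L1 differed by -1.04 (standard error 0.35), a 2.06-fold lower mean in SD, with limma's adjusted p = 0.984. The same 2 genes were the ones whose groups did not overlap, where 1.12% of all probe sets lay lower and 1.34% higher in SD without overlap.

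By role, all 5 measured genes of the spindle checkpoint and anaphase were below 0 at day -9, with a median of -0.76, as were all 3 of the chromosomal passenger complex (-0.85), all 4 of the centromere and kinetochore (-0.69), all 5 of the spindle and motors (-0.62) and all 3 of cytokinesis (-0.33). Of the cyclins and partners, 6 of 7 were below 0, with a median of -0.36, and of the mitotic kinases 3 of 4, with a median of -0.32. Both entry genes, CDC6 and CDCA3, were below 0 (-0.64), while the condensin subunits were split (-0.09). CCNB1 differed by -0.88 (standard error 0.44), limma's adjusted p = 0.984. CDK1 differed by -0.36, with a 95% interval of -1.03 to 0.31, and CCNA2 by -0.33. CENPF differed by -0.95, BIRC5 by -0.85, CDC20 by -0.76, BUB1B by -0.63, TPX2 by -0.62, AURKA by -0.45 and PLK1 by -0.19. The 95% intervals of these 10 genes all include 0, and that of PLK1 ran -0.71 to 0.33.

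The size of the day -9 difference rests on SD replicate 1. Without it the median was -0.20, with 26 of 35 genes below 0, CCNA2 at 0.00, KNSTRN at -0.39 and MAD2L1 at -0.68. Leaving out other arrays moved the count of 2: it was 16 with SD day -9 replicate 3 left out, 4 with SD day -9 replicate 2, 5 with SD day -24 replicate 2 and 3 with LD day -9 replicate 2. Macrophage markers, 5 measured of 8, moved with this comparison: their mean level per array was -0.70 to -0.02 in SD, against 0.09 to 0.72 in LD, without overlap. Neutrophil markers (4 of 6) were at -1.04 to 0.85 in SD, against -0.43 to 1.10 in LD, and luminal epithelial markers (13 of 13) at -0.05 to 0.42, against -0.02 to 0.08. Their part in the difference was not tested.

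**Figure D4:**
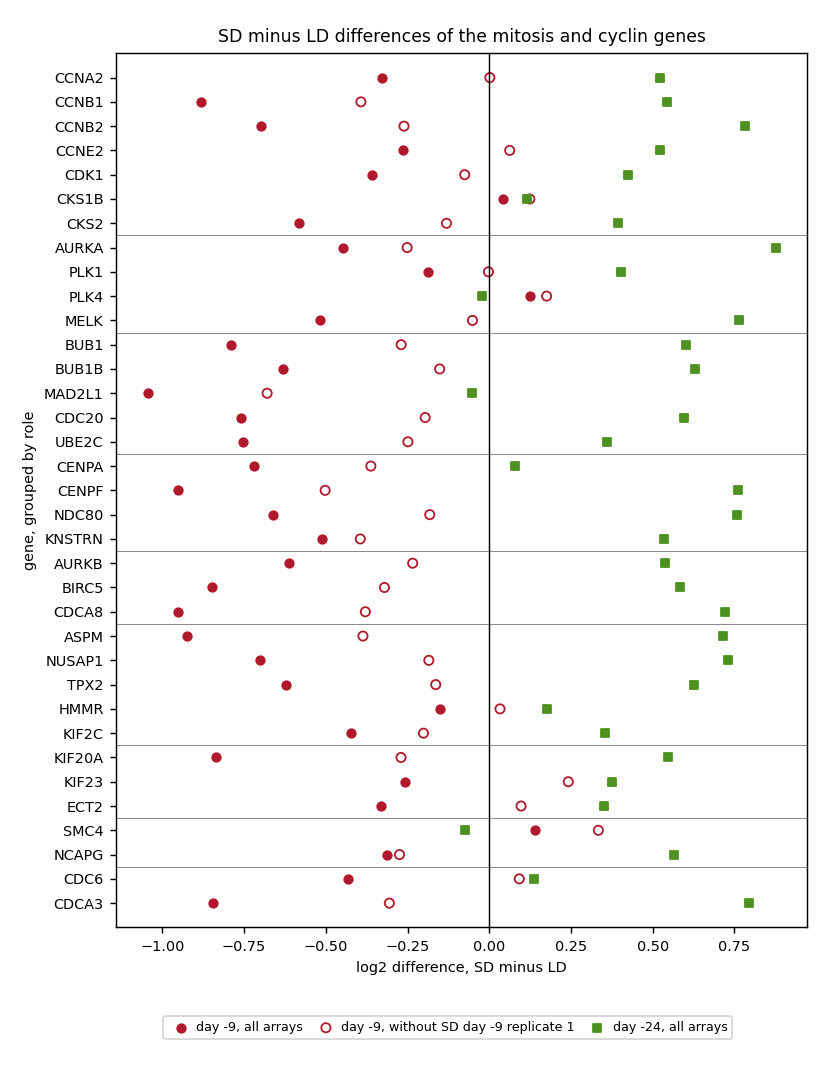
Log2 difference of SD minus LD for each of the 35 mitosis and cyclin genes, grouped by role: filled circles give day -9 with all arrays, open circles day -9 without SD day -9 replicate 1, and squares day -24. At day -9, 32 genes lie below 0 with all arrays and 26 without that replicate, and at day -24, 32 lie above 0.

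At day -24, the earlier biopsy, the mitosis and cyclin genes were mostly higher in SD. Of the 35, 32 were above 0, with a median of 0.54, against 0.01 over all probe sets, of which 52.7% were above 0. PLK4 at -0.02, MAD2L1 at -0.05 and SMC4 at -0.07 were the 3 below 0. Again neither a gene of the list nor any other probe set passed limma's adjusted threshold. At an unadjusted limma p under 0.05, 2 of 35 genes were higher and 0 lower, where 1.18% of all probe sets were higher and 1.23% lower. KNSTRN differed by 0.53 (standard error 0.18), limma's adjusted p = 1. AURKA averaged 7.36 ± 0.67 (standard deviation, n = 3) in SD against 6.49 ± 0.31 (n = 3) in LD, a 1.84-fold higher mean in SD with limma's adjusted p = 1. A second probe set of AURKA gave a smaller difference, as described below. KNSTRN was the 1 gene of the list that was higher in SD without overlap, where 2.64% of all probe sets were, and 3.02% were lower without overlap.

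All 7 measured cyclins and partners were above 0 at day -24 (median 0.52), as were all 4 centromere and kinetochore genes (0.65), all 5 of the spindle and motors (0.63), all 3 of the chromosomal passenger complex (0.58), all 3 of cytokinesis (0.38), and 3 of 4 mitotic kinases (0.58), 4 of 5 checkpoint and anaphase genes (0.60) and both entry genes (0.46). CDK1 differed by 0.42, with a 95% interval of -0.35 to 1.20, CCNB1 by 0.54 and CCNA2 by 0.52. CENPF differed by 0.76, BUB1B by 0.63, TPX2 by 0.63, CDC20 by 0.60, BIRC5 by 0.58, NCAPG by 0.57 and PLK1 by 0.40. The difference was larger without SD replicate 2, the low array of its group: all 35 genes were then above 0, with a median of 0.91, and 16 reached an unadjusted limma p under 0.05. Without SD replicate 1 the median was 0.34, with 0 genes at that p, the count was 1 without SD replicate 3 or without LD replicate 1, and it was 8 without SD day -9 replicate 1, which enters through the shared spread. The 3-prime to 5-prime difference was 0.98, 1.26 and 1.33 in SD at day -24, against 1.10, 0.90 and 1.12 in LD. Luminal epithelial markers averaged -0.13 to -0.09 per array in SD at day -24, against -0.07 to -0.02 in LD, without overlap (the nearest arrays were at -0.089 and -0.072). The part of RNA quality and of these markers was not tested.

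Averaged over both days, SD and LD showed no common direction, with 18 of 35 genes above 0 and a median of 0.00. None reached an unadjusted limma p under 0.05, where 1.94% of all probe sets did, and none passed the adjusted threshold. The gene of smallest p was MAD2L1, at -0.55 (standard error 0.26), limma's adjusted p = 1. CENPA followed at -0.32 and AURKA at 0.21. The intervals remain wide: that of CDK1 ran -0.48 to 0.55 and that of CCNB1 -0.89 to 0.55. Without SD day -9 replicate 1, 33 of the 35 genes were above 0, with a median of 0.16, and without SD day -24 replicate 1, 29 were below 0, with a median of -0.12. The count of 0 was 1 without SD day -9 replicate 2 or 3 or SD day -24 replicate 1 or 2.

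The interaction of photoperiod and day sets the change between days in SD against that in LD. It was below 0 for 33 of 35 genes, PLK4 and SMC4 being above it, with a median of -1.11 against -0.02 over all probe sets. SMC4 was above 0 only on the probe set used, and its further probe sets were below 0. At an unadjusted limma p under 0.05, 9 genes were lower and 0 higher, where 1.66% of all probe sets were lower and 2.49% higher, and none passed the adjusted threshold. KNSTRN had the smallest p of the 35, at -1.05 (standard error 0.24), limma's adjusted p = 0.900. AURKA stood at -1.32 (standard error 0.42), limma's adjusted p = 0.900, and CENPF at -1.71 (standard error 0.72), limma's adjusted p = 0.900. The count of 9 was 23 with SD day -9 replicate 3 left out, 17 with SD day -9 replicate 2 and 26 with SD day -24 replicate 2. It was 2 or 3 without any one of SD day -24 replicates 1 and 3, LD day -9 replicates 3 and 4 and LD day -24 replicates 1 and 2, and the median stayed between -1.51 and -0.78 over all 14 such fits.

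In SD, the day -9 biopsies set against those of day -24 address the approach to calving under short days. These SD arrays of day -9 also enter the comparison with LD at day -9, so both differences share arrays. Of the 35 genes, 33 were lower at day -9, with a median of -0.88 against -0.01 over all probe sets, while CKS1B (0.01) and PLK4 (0.00) were at or just above 0. At an unadjusted limma p under 0.05, 18 genes were lower and 0 higher, where 1.93% of all probe sets were lower and 2.63% higher, and none passed the adjusted threshold. KNSTRN differed by -0.67 (standard error 0.17), limma's adjusted p = 0.970. The cyclin CCNE2 averaged 5.42 ± 0.69 at day -9 (standard deviation, n = 4) and 6.51 ± 0.25 at day -24 (standard deviation, n = 3), a 2.13-fold lower mean with limma's adjusted p = 0.970. MELK differed by -1.18 (standard error 0.44), limma's adjusted p = 0.970. KNSTRN and CCNE2 were the 2 genes without overlap between the days, where 2.94% of all probe sets lay lower and 2.96% higher without overlap.

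The median of each of the 9 role groups was below 0 between the days in SD. The largest medians were those of the chromosomal passenger complex (-1.16, 3 of 3 genes below 0) and the spindle checkpoint and anaphase (-0.98, 5 of 5), and the smallest that of the mitotic kinases (-0.47, 3 of 4). BIRC5 differed by -1.16, CENPF by -1.14, CCNB1 by -1.02, CDC20 by -0.98, BUB1B by -0.98, MAD2L1 by -0.96 and TPX2 by -0.88. AURKA differed by -0.67, CCNA2 by -0.67, CDK1 by -0.65 and PLK1 by -0.28, the last with an interval of -0.84 to 0.28. Of the SD arrays of day -9, leaving out replicate 1 gave a count of 3 in place of 18, replicate 3 a count of 28 and replicate 4 a count of 12. Of those of day -24, leaving out replicate 1 gave 2, replicate 2 gave 29 and replicate 3 gave 3, and fitting only the SD arrays gave 2. The median without SD day -9 replicate 1 was -0.47, with 33 of 35 genes still below 0. The 3-prime to 5-prime difference was 0.84 to 0.99 for the SD arrays of day -9, against 0.98 to 1.33 for those of day -24. Adipocyte markers (7 measured of 8) averaged -0.30 to 0.51 per array at day -9, against -0.50 to -0.06 at day -24, and luminal epithelial markers (13 of 13) averaged -0.05 to 0.42 at day -9, against -0.13 to -0.09 at day -24, without overlap. The part of RNA quality and of these markers was not tested.

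In LD most genes stood on the other side of 0 between the days. At day -9, 29 of 35 genes were higher than at day -24, with a median of 0.23 against 0.00 over all probe sets. Of the 35, 2 were higher at an unadjusted limma p under 0.05, where 3.61% of all probe sets were higher and 3.86% lower, and none passed the adjusted threshold. They were KNSTRN, at 0.37 (standard error 0.17) with limma's adjusted p = 0.651, and AURKA, at 0.66 (standard error 0.30) with limma's adjusted p = 0.651. When each array was centred on its median, neither reached that p. SMC4 differed by -0.52 (standard error 0.25), limma's adjusted p = 0.651. Higher at day -9 without overlap were 4 genes (KNSTRN, AURKA, NDC80 and TPX2), where 4.32% of all probe sets were, and lower without overlap was SMC4 alone, where 4.66% were. Luminal epithelial markers averaged -0.02 to 0.08 per LD array at day -9, against -0.07 to -0.02 at day -24, without overlap (the nearest arrays were at -0.016 and -0.023). Macrophage markers averaged 0.09 to 0.72 at day -9, against -0.24 to 0.10 at day -24, with GPNMB differing by 1.02 and CD68 by 0.75. The part of these markers was not tested.

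CDK1 differed by 0.14 between the days in LD, with a 95% interval of -0.59 to 0.86, CCNB1 by 0.41, CCNA2 by 0.18 and PLK1 by 0.32. CENPF differed by 0.57, CDC20 by 0.37, TPX2 by 0.37, BUB1B by 0.27, BIRC5 by 0.27 and MAD2L1 by 0.03. The 6 genes below 0 were CCNE2 (-0.30), CDC6 (-0.16), ECT2 (-0.17), HMMR (-0.18), PLK4 (-0.14) and SMC4. CCNE2 and CDC6 act at the entry into S phase and not in mitosis itself. The median was 0.15 without LD day -9 replicate 3. The count of 2 was 0 when leaving out SD day -9 replicate 4 or any one of LD day -9 replicates 1, 3 and 4 and LD day -24 replicates 1 and 2. It was 1 without SD day -9 replicate 2, SD day -24 replicate 1 or LD day -24 replicate 3, and SMC4 was lower at that p without SD day -9 replicate 1 or SD day -24 replicate 1. Fitting only the LD arrays gave 4 genes higher and 1 lower.

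Averaged over SD and LD, 33 of 35 genes were lower at day -9, with a median of -0.30 against 0.00 over all probe sets. At an unadjusted limma p under 0.05, 3 were lower and 0 higher, where 4.08% of all probe sets were lower and 3.64% higher, and none passed the adjusted threshold. CCNE2 differed by -0.70 (standard error 0.23), limma's adjusted p = 0.636. HMMR differed by -0.35 and SMC4 by -0.41, and both were below 0 in SD and in LD. The luminal epithelial level was higher at day -9 without overlap within each photoperiod, as given above, and the luminal keratin gene KRT19 differed by 0.31 and the myoepithelial genes ACTA2 by 0.35 and CNN1 by 0.70. Their part was not tested. The median was -0.11 with SD day -9 replicate 1 left out, -0.19 with SD day -24 replicate 1 left out, and -0.52 with SD day -24 replicate 2 left out, where the count of 3 was 9. That count was 5 with SD day -9 replicate 3 left out, and 1 or 2 when leaving out any one of SD day -9 replicate 1, LD day -9 replicate 4, SD day -24 replicate 1 and the 3 LD arrays of day -24.

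The spread between arrays of one group was itself large for these genes. The pooled standard deviation within groups had a median of 0.64 over the 35 genes, against 0.24 over all probe sets, and 24 of 35 lay above 0.49, the 90th percentile of all probe sets. At day -9 the standard deviation was larger in SD than in LD for 34 of 35 genes, PLK4 being the exception, against 48.5% of all probe sets. Its median over the genes was 0.93 in SD and 0.26 in LD. At day -24 it was larger in SD for 34 of 35, CCNE2 being the exception, against 51.1% of all probe sets, with medians of 0.72 in SD and 0.19 in LD. Without SD day -9 replicate 1, the day -9 count was 15 of 35 (42.9%), against 36.6% of all probe sets, the medians were 0.28 in SD and 0.26 in LD, and the pooled standard deviation of 7 of 35 genes lay above that percentile, computed anew. Without SD day -24 replicate 2, which leaves 2 SD arrays, the day -24 count was 12 of 35 (34.3%), against 44.4% of all probe sets, and the medians were 0.17 in SD and 0.19 in LD. Without these arrays the spread was no longer wider in SD for most of the genes. Both arrays were picked after their low values for these genes were seen, and no LD array was left out in return. A fall of the SD spread was therefore built into the choice, and whether SD arrays vary more than LD arrays cannot be decided from it. The narrowest ranges over the 14 arrays were those of CKS1B (0.37), PLK4 (0.77), KNSTRN (1.25), HMMR (1.30) and PLK1 (1.30), and the widest that of CDCA8 (3.48).

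More than 1 probe set measured 13 of the genes, and the 17 further probe sets can be set against those used. In SD, all 17 gave a change between days of the same sign as the probe set used. For the difference between photoperiods, 5 of 17 had the opposite sign at day -9 and 6 of 17 at day -24. At day -9 these were 4 probe sets of HMMR, at 0.06 to 0.19, and 1 of SMC4, at -0.08. At day -24 they were 3 of HMMR, at -0.18 to -0.04, 2 of SMC4, both at 0.18, and 1 of CDC6, at -0.11. The direction of HMMR, SMC4 and CDC6 between photoperiods therefore depends on the probe set. The further probe sets of HMMR lay at 3.84 to 6.07 over all arrays, against 8.17 to 9.46 for the one used. That of CDC6 lay at 4.00 to 5.30, against 5.88 to 8.65. The lower quartile of all probe sets was 4.47 to 4.73 per array. For HMMR and CDC6 the opposite signs thus rest on probe sets of low signal. For the interaction, 6 of 17 had the opposite sign, among them the further probe sets of SMC4. In LD, the second probe set of ASPM was at -0.12 between days and that of ECT2 at 0.13, each opposite to the probe set used. Overlap in LD also varied with the probe set. The further probe sets of SMC4 lay at 6.49 to 6.64 and 6.71 to 7.07 in LD at day -9. At day -24 they lay at 6.29 to 6.95 and 6.73 to 7.19, and thus overlapped between the days. The second probe set of AURKA also overlapped, at 5.99 to 6.47 in LD at day -9 against 5.96 to 6.02 at day -24. At day -24 this second probe set lay at 5.86 to 6.56 in SD, against 5.96 to 6.02 in LD. Its mean was higher in SD, by less than the 0.88 of the probe set used. Its interaction had the same sign as that of the probe set used and was smaller. The size of these AURKA differences therefore depends on the probe set.

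Neighbouring cell cycle lists were measured alongside, and none of their genes passed limma's adjusted threshold in these comparisons. Further mitosis genes outside the 50 (39 measured of 63) were lower in SD at day -9 for 31 genes, with a median of -0.21, and higher in SD at day -24 for 34, with a median of 0.37. At an unadjusted limma p under 0.05, 1 of them was lower in SD at day -9, 3 were higher in SD at day -24 and 13 were lower in SD at day -9 than at day -24, where the shares of all probe sets were 1.33%, 1.18% and 1.93%. SKA3, a subunit of the kinetochore SKA complex, differed between SD and LD by -0.63 at day -9 and by 0.91 at day -24. ESPL1, the separase that cuts cohesin, was at -0.74 at day -9, and CENPO, a centromere protein, at 0.62 at day -24. Replication and S phase genes (31 of 35) were lower in SD at day -9 for 24, with a median of -0.15, and higher at day -24 for 28, with a median of 0.20. Between days in SD they were lower at day -9 for 30 of 31, with a median of -0.43, and 2 of these were lower at an unadjusted limma p under 0.05, where 1.93% of all probe sets were. PCNA, the sliding clamp of DNA polymerase, differed by -0.47 between days in SD and by -0.48 in LD, and MCM6, a helicase subunit, by -0.80 in SD.

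The lists of cell cycle regulators had medians nearer 0 than the mitosis and cyclin genes at both days. G1 to S regulators (12 of 18) had medians of -0.09 at day -9 and -0.01 at day -24 for SD minus LD. This list also holds regulators of CDK1, the kinase that drives cells into mitosis, so it is not confined to the step from G1 into S phase. Of these, CDC25C, a phosphatase that activates CDK1, was at 0.47 at day -24, and WEE1, the kinase that inhibits CDK1, at -1.05. E2F, RB and DREAM factors (16 of 23), which set the transcription of cell cycle genes, had medians of 0.03 and 0.09. CDK inhibitors (5 of 8) were at -0.21 and 0.19, with CDKN1A, the p53 target p21, at 0.43 at day -24. Core subunits and partners of the anaphase-promoting complex (12 of 16) were at -0.01 and 0.21, with ANAPC10 at 0.28 and CDC26 at 0.24 at day -24. These 4 lists together held, at an unadjusted limma p under 0.05, 1 gene lower in SD at day -9 (LIN52), where 1.33% of all probe sets were lower, and 0 higher, where 1.44% were. At day -24 they held 3 genes higher in SD (CDC25C, ANAPC10 and CDC26), where 1.18% of all probe sets were, and 2 lower (WEE1 and MYBL1), where 1.23% were. The differences between these lists and the mitosis and cyclin genes were not tested.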

How the data were processed

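Total RNA from 14 mammary biopsies was labelled and hybridised to Affymetrix bovine arrays, 1 colour and 1 array per biopsy. The authors deposited log2 values by robust multi-array average (RMA), per the submitters' processing notes; the software version is not given in the sources used here. The table held 24128 probe sets with values of 1.49 to 14.0, of which 112 control probe sets were left out. Symbols came from the platform annotation: 13292 probe sets had 1 symbol, 86 several and 10638 none. The replicates of a group are numbered in the labels.

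From the log2 values, group means over all 14 arrays were fitted with limma 3.58.1 in R 4.3.3 (10 residual degrees of freedom, eBayes, two-sided), in 7 contrasts, with Benjamini-Hochberg adjustment over 24016 probe sets and a threshold of 0.05. The fit was tested on simulated data. Intervals are 95% intervals of the fit.

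Members and lists were chosen with earlier results of these data known. Named genes were a fixed set of 15 (of which CDK1, CCNB1, CCNA2, AURKA, PLK1, MAD2L1, BUB1B, CDC20, CENPF, TPX2 and BIRC5 were measured), the 3 of smallest limma p per contrast, the 2 of smallest p per pathway list, and others by range or role. Alternatives were low-signal filters, an intensity trend, array weights, median centring, fits of only the groups compared, a replicate block, averaging the probe sets of a gene, and leaving out arrays. Whether equal numbers mark the same cow was not settled by the correlations between arrays given below, so the main fit does not pair the arrays.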

Additional observations from a re-analysis of the deposited data

Results flagged for a closer look

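In groups of 4 arrays, the gap of the most extreme array to its nearest neighbour was divided by the range of the group and set against Dixon's critical value of 0.829, for 72 combinations of a group with a gene or with the mean level of the mitosis and cyclin genes. Chance alone puts about 1 in 20 groups past this value, and 3 passed. NDC80, a microtubule-binding kinetochore protein, was at 4.32 in SD day -9 replicate 1, against 6.06 to 6.41 in the other SD arrays of that day. NUSAP1, a spindle protein, was at 5.87 in the same array, against 7.74 to 8.10 in the others. SMC4, the condensin subunit, was at 6.22 in LD day -9 replicate 4, against 6.87 to 6.93 in the other LD arrays of day -9. Its further probe sets did not share this gap. They were at 6.57 and 6.88 in that array, against 6.49 to 6.64 and 6.71 to 7.07 in the other LD arrays of day -9.

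KNSTRN stood out because every SD array was lower at day -9 than every SD array at day -24, while every LD array was higher at day -9 than every LD array at day -24. In the same way, every SD array was below every LD array at day -9 and above every LD array at day -24. The difference of these differences, SD day change minus LD day change, was -1.05 on the log2 scale, with limma's adjusted p = 0.900, so it did not pass the adjusted threshold. The margins were narrow. At day -9 the nearest arrays were at 7.69 in SD and 7.78 in LD. At day -24 they were at 7.79 in SD and 7.71 in LD. This ordering was looked for only among the mitosis and cyclin genes, so the share of all probe sets that have it is not given.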

How the results depend on the processing

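The median log2 difference of the mitosis and cyclin genes moved by less than the pooled standard deviation of their mean level within groups, 0.53, in all 165 pairs of a comparison and an alternative. This bar was near or above the size of most of these medians, so passing it does not show that a median held. Without SD day -9 replicate 1, the median for SD minus LD at day -9 went from -0.61 to -0.20. That for the days in SD went from -0.88 to -0.47. Of the differences of named genes, 1151 kept their direction and their side of the threshold and 7 turned. MAD2L1, SD minus LD at day -24 (-0.05), was 0.15 with array weights, 0.01 (0.00878) without both arrays apart on principal components and -0.41 to 0.34 when 1 array was left out. PLK1, SD minus LD at day -9 (-0.19), was 0.01 (0.00692) with array weights. CCNA2, SD minus LD at day -9 (-0.33), was 0.00 (0.00178) without both of those arrays and -0.52 to 0.00 when 1 array was left out. Probe sets of the whole array past the adjusted threshold were 0 in all 7 comparisons; they were 2 for the days averaged over photoperiods without probe sets of mean below the median, 1 for the days in SD without both arrays of low signal, and 0 to 1 for the days in SD and for SD minus LD averaged over days when 1 array was left out. None of the 35 genes was among them. The cause of these shifts was not tested. With array weights, the median for SD minus LD at day -9 was -0.19. The count of mitosis and cyclin genes at an unadjusted limma p under 0.05 was then 6 for the days in SD, against 18 in the main fit. For the interaction it was 2, against 9. SD minus LD averaged over days was then above 0 for 33 of 35 genes, with a median of 0.14.

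With the replicate number as a block, the medians were -0.95 for the days in SD, 0.20 in LD and -0.37 averaged, and the other 4 were as before. The count of mitosis and cyclin genes at an unadjusted limma p under 0.05 was then 4 for SD minus LD at day -9. It was 22 for the days in SD, 0 in LD, 1 for the days averaged and 11 for the interaction. No probe set passed the adjusted threshold. Arrays of the same number deviated together (r over 0.1) in 9 of 19 pairs, with r from -0.342 to 0.331, and 7 of 14 arrays correlated best with their own number. With 3 or 4 arrays in a group, the 95% interval of CDK1 for SD minus LD at day -9, -1.03 to 0.31, holds both 0 and a difference of 1 log2 unit.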
